A study of Mus musculus with 15 samples.

Results

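The transcripts described here are 9 genes that regulate or mark the red blood cell lineage: Gata1, Klf1, Nfe2, Epor, Tfrc, Alas2, Slc4a1, Ermap and Car1. They were read on every probe set that the platform's annotation gives one of these symbols, which was 16 of the 45101 probe sets on the array, for 9 of the 18194 genes that a probe set with a single symbol represents. Tfrc has 6 of these probe sets and Slc4a1 has 3, so the 16 are not independent of each other. Membership goes by gene name and has no threshold on a measured value.

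Expression was measured in LSK cells, the fraction of C57BL6 mouse bone marrow that holds stem and early progenitor cells. The groups differ at Apc, whose protein takes part in the degradation of beta-catenin and so limits canonical Wnt signalling. KO cells carried 15lox/15lox, a pair of floxed alleles (3 arrays). N1638 cells carried a floxed allele with the hypomorphic allele 1638N, written 15lox/1638N (3 arrays). T1572 cells carried a floxed allele with the hypomorphic allele 1572T, written 15lox/1572T (3 arrays). WT cells were wt/wt (6 arrays). Per the protocol given for all groups, WT included, the cells were transduced ex vivo with a retrovirus that expresses Cre and GFP (MSCV-Cre-IRES-GFP), GFP-positive cells were sorted, and the culture held Stemspan medium with added cytokines, Flt3L and SCF among them. No erythropoietin is named among the additions. The labels do not say whether the samples of a group came from separate mice, so p-values measure the spread between these samples, which may be technical.

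Erythroid cells arise from progenitors that they share with megakaryocytes. GATA1, a zinc finger transcription factor, binds GATA motifs and acts in erythroid cells, megakaryocytes, mast cells and eosinophils. KLF1 activates genes for globin, haem synthesis and the red cell membrane, and erythropoietin acting through its receptor keeps late erythroid progenitors alive. Globin, haem and membrane genes then come on strongly as the cells mature.

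The promoters of Gata1, Klf1 and Epor are shown because these 3 transcripts moved together across arrays, and that of Alas2 because it encodes the erythroid enzyme that opens haem synthesis and read low here. Each runs from 250 bases before the RefSeq start to 50 after it (build GRCm38.p6, credited to RefSeq), read 5′ to 3′ on the gene's strand. Capitals mark AGATAA or TGATAA, the GATA motifs searched on both strands. The windows are chrX:7967861-7968160 (minus strand) for Gata1, chr8:84901732-84902031 (plus) for Klf1, chr9:21963527-21963826 (minus) for Epor and chrX:150547167-150547466 (plus) for Alas2.
Gata1: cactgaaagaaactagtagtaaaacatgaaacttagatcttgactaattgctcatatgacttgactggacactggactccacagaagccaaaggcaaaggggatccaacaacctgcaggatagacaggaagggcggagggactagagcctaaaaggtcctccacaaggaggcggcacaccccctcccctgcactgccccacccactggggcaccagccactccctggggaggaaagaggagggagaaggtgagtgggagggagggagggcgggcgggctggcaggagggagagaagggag
Klf1: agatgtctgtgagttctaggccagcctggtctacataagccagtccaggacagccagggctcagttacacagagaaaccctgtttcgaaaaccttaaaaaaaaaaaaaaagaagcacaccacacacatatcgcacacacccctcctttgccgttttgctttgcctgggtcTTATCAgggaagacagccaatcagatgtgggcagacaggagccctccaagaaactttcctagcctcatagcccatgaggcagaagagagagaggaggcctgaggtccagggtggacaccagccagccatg
Epor: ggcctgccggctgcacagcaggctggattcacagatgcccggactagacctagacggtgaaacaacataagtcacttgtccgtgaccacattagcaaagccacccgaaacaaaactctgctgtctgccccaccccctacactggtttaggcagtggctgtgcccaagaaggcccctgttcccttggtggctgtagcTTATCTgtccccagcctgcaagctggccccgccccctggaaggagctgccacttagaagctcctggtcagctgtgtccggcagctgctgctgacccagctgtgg
Alas2: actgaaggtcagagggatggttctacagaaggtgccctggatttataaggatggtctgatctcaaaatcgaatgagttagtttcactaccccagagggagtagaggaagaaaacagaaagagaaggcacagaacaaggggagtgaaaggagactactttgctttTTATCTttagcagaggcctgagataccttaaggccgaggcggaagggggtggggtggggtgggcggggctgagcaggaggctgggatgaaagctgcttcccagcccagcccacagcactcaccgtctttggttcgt
The Gata1 window held no match, which says only that these letters are not in it. The match began 80 bases before the start in Klf1, 54 bases before it in Epor and 86 bases before it in Alas2, each on the other strand. RefSeq windows were at hand for 6 of the 9 genes, 7 windows in all since Tfrc has 2. Of these 7, 4 held a match, the remaining one being that of Ermap, 67 bases before its start. Among all 32851 promoter windows of this length, 18.6% held a match. A match describes these letters and is neither a site nor a cause.

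The deposited values are on a log2 scale, and the array medians ran from 6.65 to 6.84. The WT arrays fall into sets of 3 whose means nearly coincide: they differed by 0.05 or less on 96.75% of probe sets, whereas the KO mean was that close to the WT 4 to 6 mean on 23.97%. All 3 values of WT arrays 1 to 3 were equal on 18.2% of probe sets, against 0.0177% for WT arrays 4 to 6. WT arrays 4 to 6 are therefore the WT group throughout, and results that change when all 6 are used are given with both. The sets of 3 are not independent of each other. A pass with all 6 WT arrays is therefore no separate support, and its p-value may be too small. The Apc probe set 1420956_at read 5.58, 6.10 and 5.69 in KO, 8.47, 8.67 and 8.52 in N1638, 8.96, 8.86 and 8.64 in T1572, and 9.72, 9.61 and 9.93 in WT. Apc 1420956_at fell by 3.96 in KO (limma adjusted p = 8.9e-07) and by 1.20 in N1638 (adjusted p = 0.00296), whereas its T1572 value of -0.93 missed the threshold (adjusted p = 0.103). Another Apc probe set, 1435543_at, was higher in KO, by 0.77 (limma adjusted p = 0.0133), and where either lies relative to the deleted part of Apc was not analysed here. Axin2 (1436845_at), a target gene of Wnt signalling, rose by 4.77 in KO (limma adjusted p = 1.9e-05) and by 3.86 in N1638 (adjusted p = 0.00023), and stood at 1.20 in T1572 (adjusted p = 0.447). Kit and Cd34 read 10.75 to 11.54 and 13.26 to 13.61 on the 12 arrays used, which does not by itself check the LSK label. Sca1 has no probe set of its own symbol in the list used and was not analysed here. A mean Xist value above 11 was taken as a female pattern, and no Y gene entered this typing. It was met by 2 of 3 KO arrays, 1 of 3 N1638 arrays, 1 of 3 T1572 arrays and 0 of 3 WT arrays. Gata1 and Alas2 lie on the X chromosome.

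No erythroid regulator or marker passed the test in any mutant genotype. With limma over all 45101 probe sets, 0 of the 16 probe sets reached an adjusted p under 0.05 in KO against WT, where 1.49% of all probe sets did. The same count was 0 of 16 in N1638 against WT, with a background of 1.38%, and 0 of 16 in T1572 against WT, with a background of 0.0288%. At an unadjusted p under 0.05 the limma counts were 1 of 16 for KO (10.2% of all probe sets), 1 of 16 for N1638 (16.0%) and 0 of 16 for T1572 (6.84%). The groups did not overlap on 1 of 16 probe sets in KO against WT (17.4% of all probe sets), on 1 of 16 in N1638 against WT (26.5%) and on 0 of 16 in T1572 against WT (12.6%). Both single probe sets were that of Nfe2, and none of these shares exceeds its background. The median log2 fold change of the 16 was -0.06 in KO, 0.09 in N1638 and 0.08 in T1572, and over all probe sets it was -0.03, -0.00 and -0.01 in the same order.

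**Figure D1:**
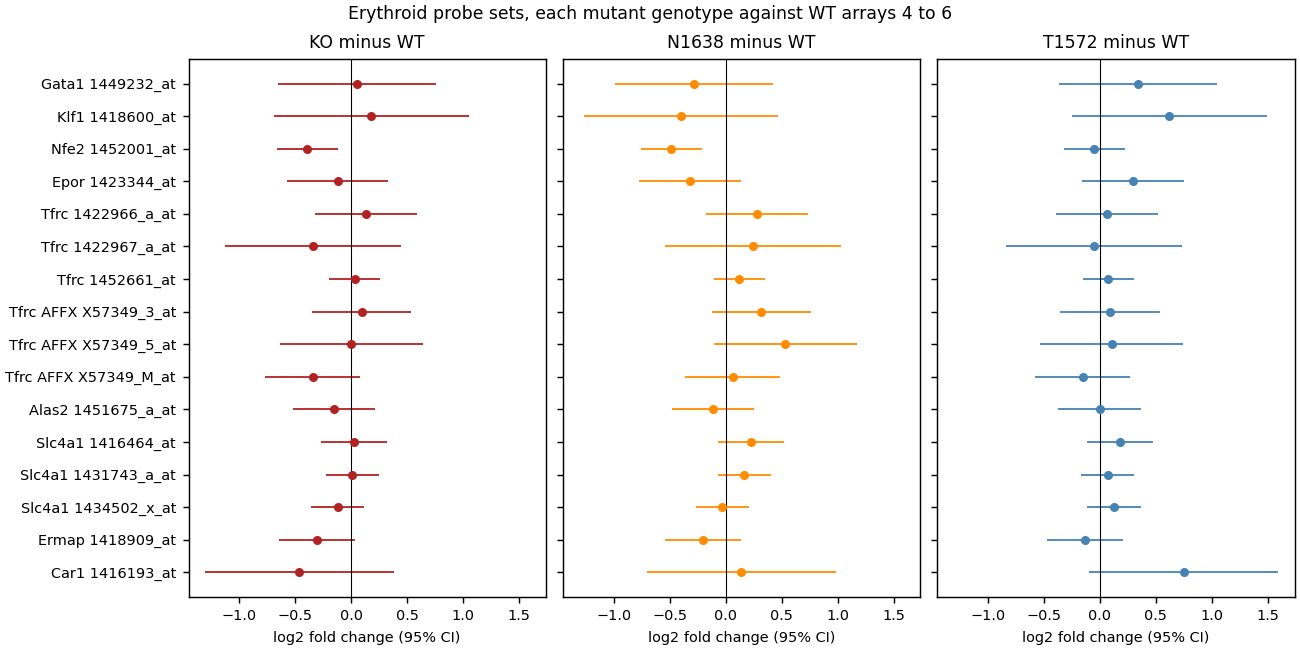
Log2 fold change of each of the 16 erythroid probe sets (x axis, points, with 95% confidence intervals as lines) for KO, N1638 and T1572 against WT arrays 4 to 6. Only the Nfe2 intervals in KO (-0.67 to -0.12) and N1638 (-0.76 to -0.21) stay clear of 0, before adjustment for the number of probe sets.

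Gata1, the master transcription factor of the lineage, varied more within genotypes than between them. Gata1 read 9.71, 9.99 and 10.67 in KO, 10.06, 9.37 and 9.94 in N1638, 10.31, 10.85 and 10.06 in T1572, and 10.24, 9.48 and 10.48 in WT. The highest array was T1572 2 and the lowest N1638 2, a 2.79-fold span on the linear scale, and all 4 groups overlapped. Against WT, Gata1 differed by 0.05 in KO (95% confidence interval -0.65 to 0.76), by -0.28 in N1638 (-0.99 to 0.43) and by 0.34 in T1572 (-0.37 to 1.05), with limma adjusted p = 0.979, 0.723 and 0.886. The order of the group means was T1572, KO, WT and N1638, and no neighbours in it differed beyond their spread. These intervals reach 1.69-fold upward in KO, 2.06-fold upward in T1572 and down to 0.51-fold in N1638. With 3 arrays a group the response of Gata1 is thus bounded only loosely.

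Klf1, which encodes the activator of adult beta-globin and many other red cell genes, overlapped WT in every mutant genotype. Klf1 read 7.75, 7.86 and 9.02 in KO, 7.55, 7.22 and 8.12 in N1638, 8.47, 8.70 and 8.78 in T1572, and 7.96, 7.34 and 8.79 in WT. One array stood high in KO (KO 3) and one in WT (WT 6), whereas the 3 T1572 arrays lay close together at the upper end. The log2 fold changes against WT were 0.18 in KO, -0.40 in N1638 and 0.62 in T1572, with an SE of 0.40 each (limma adjusted p = 0.936, 0.672 and 0.816). N1638 arrays all lay below T1572 arrays for Klf1, a log2 difference of -1.02 (95% confidence interval -1.89 to -0.15) that did not pass over all probe sets (limma adjusted p = 0.605).

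Nfe2 was the member closest to a change. It encodes the p45 subunit of NF-E2, a leucine zipper factor that pairs with small Maf proteins in erythroid cells and megakaryocytes. Nfe2 read 12.31, 12.37 and 12.59 in KO, 12.25, 12.22 and 12.53 in N1638, 12.89, 12.78 and 12.63 in T1572, and 12.87, 12.65 and 12.93 in WT. Every KO and N1638 array lay below every T1572 and WT array. The log2 fold change against WT was -0.39 ± 0.12 in KO (SE, n = 3 each; limma adjusted p = 0.242) and -0.48 ± 0.12 in N1638 (limma adjusted p = 0.0962), and in T1572 it was -0.05 ± 0.12 (adjusted p = 0.969). With all 6 WT arrays as the control Nfe2 passed in KO at -0.39 (limma adjusted p = 0.0381) and in N1638 at -0.48 (adjusted p = 0.0103), the only calls of a member under any alternative run. That control includes the WT arrays whose mean matches the other WT mean, so these calls are no independent support. Set against T1572, Nfe2 differed by -0.34 in KO (limma adjusted p = 0.452) and by -0.43 in N1638 (adjusted p = 0.424), again without overlap.

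Epor, the erythropoietin receptor, read 7.02, 7.27 and 7.28 in KO, 7.17, 6.71 and 7.11 in N1638, 7.30, 7.98 and 7.53 in T1572, and 7.23, 7.03 and 7.68 in WT. T1572 arrays lay above all KO and N1638 arrays, while WT arrays spread across the range. Epor differed from WT by -0.12 in KO, -0.32 in N1638 and 0.30 in T1572, each with an SE of 0.21 (limma adjusted p = 0.909, 0.491 and 0.836). The log2 difference of N1638 from T1572 was -0.61 (95% confidence interval -1.07 to -0.16; limma adjusted p = 0.536).

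**Figure D2:**
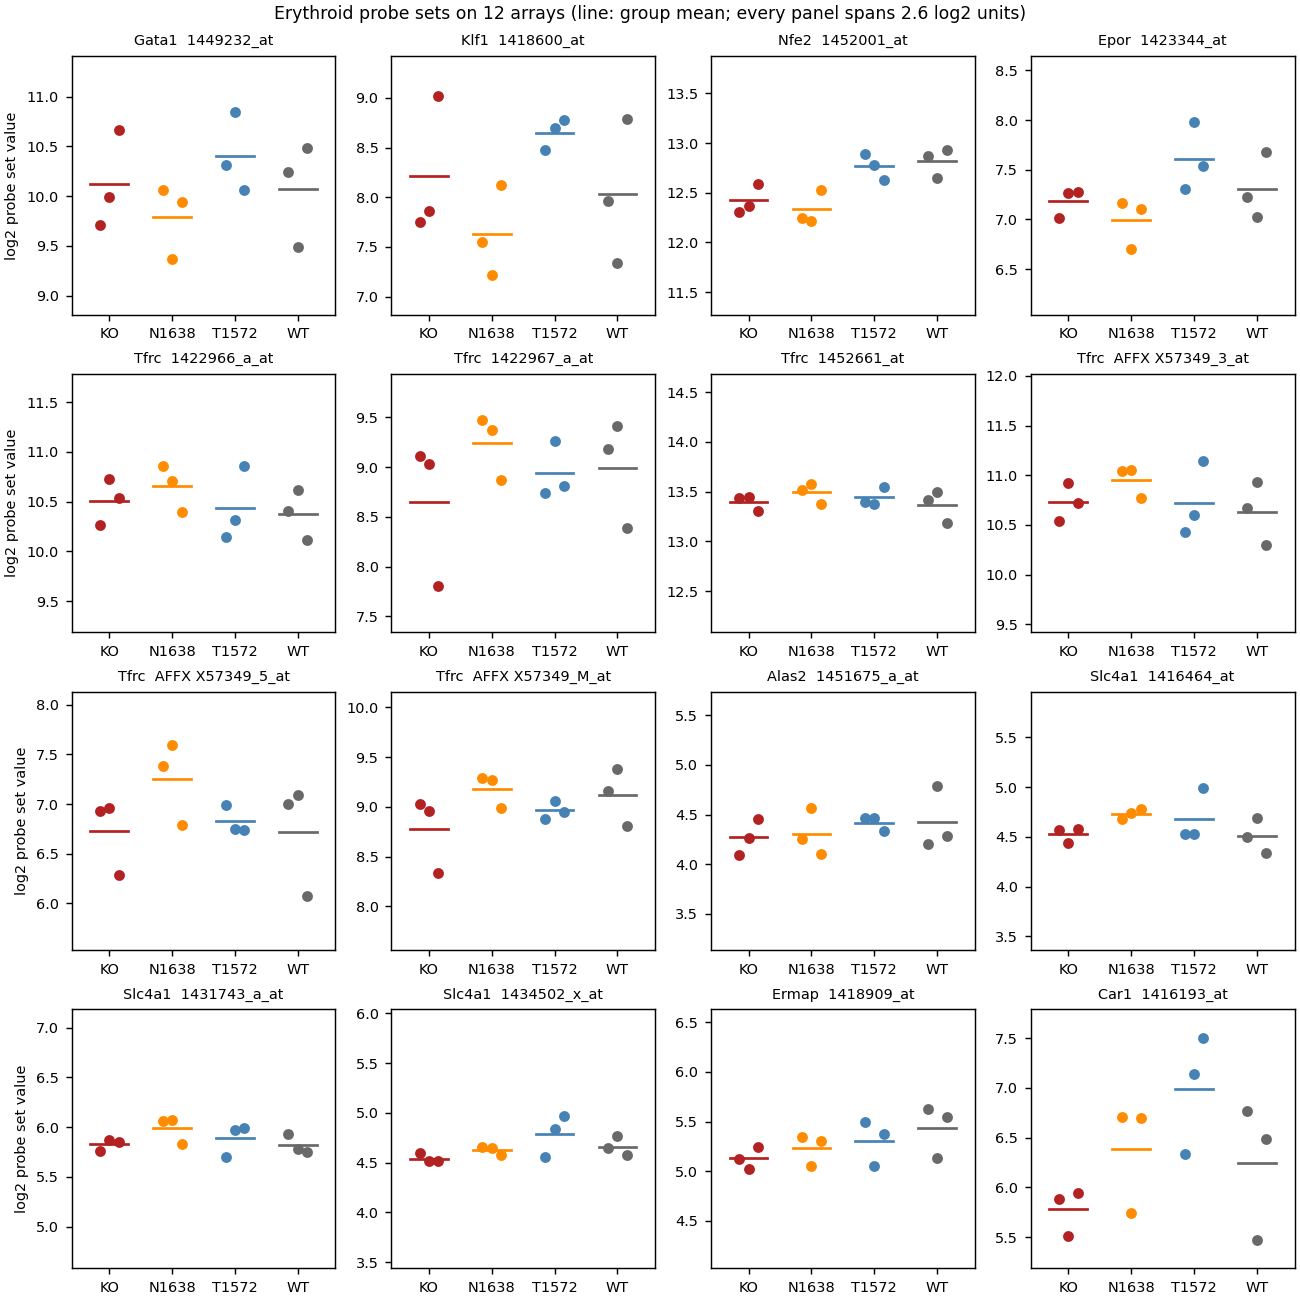
Log2 value (y axis) of each of the 16 erythroid probe sets on every array, by genotype (x axis: KO, N1638, T1572 and WT arrays 4 to 6; points are arrays, lines are group means, and each panel spans the same number of log2 units). Nfe2 sits lower on all KO and N1638 arrays than on all T1572 and WT arrays, and Gata1 and Klf1 spread widely within groups. In the Alas2 and Slc4a1 panels every mutant genotype overlaps WT.

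Tfrc is the transferrin receptor that dividing cells use to take up iron and that erythroblasts carry in large amounts. Its brightest probe set, 1452661_at, read 13.44, 13.45 and 13.31 in KO, 13.52, 13.58 and 13.38 in N1638, 13.40, 13.38 and 13.55 in T1572, and 13.42, 13.50 and 13.19 in WT. All groups overlapped, and Tfrc 1452661_at differed from WT by 0.03 in KO (95% confidence interval -0.20 to 0.26), 0.12 in N1638 (-0.11 to 0.35) and 0.07 in T1572 (-0.16 to 0.30). The upper bounds of these intervals reach 1.28-fold at most, and hold for this probe set alone: the Tfrc probe set 1422967_a_at spanned 3.19-fold over the 12 arrays. The log2 fold changes of the other 5 Tfrc probe sets ran from -0.34 to 0.13 in KO, from 0.06 to 0.53 in N1638 and from -0.15 to 0.11 in T1572. Of those 5 probe sets, 3 are the array maker's controls for the 3′, middle and 5′ parts of the Tfrc transcript. The 3′ value exceeded the 5′ value by 3.61, 3.96 and 4.43 in KO, 3.65, 3.46 and 3.98 in N1638, 3.44, 3.85 and 4.40 in T1572, and 3.67, 3.84 and 4.23 in WT. KO 3, T1572 3 and WT 6 had the widest gaps. For Actb the same gap was widest in KO 3 at 1.02, so the 5′ signal of that array was low in 2 transcripts. The part of this gap in the Tfrc differences was not tested.

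The other 4 members, Alas2, Slc4a1, Ermap and Car1, read low, with means below the median of all probe sets (6.76). No detection calls were used, and as a gauge 17 genes of unrelated tissues read between 4.09 and 8.67 on average (median 5.48), a range that holds probe sets of different brightness. Alas2, the erythroid form of the first enzyme of haem synthesis, read 4.09 to 4.46 in KO, 4.11 to 4.56 in N1638, 4.33 to 4.46 in T1572 and 4.20 to 4.78 in WT. Slc4a1, the band 3 anion exchanger of the red cell membrane, read 4.44 to 5.87 in KO, 4.58 to 6.07 in N1638, 4.53 to 5.99 in T1572 and 4.33 to 5.93 in WT across its 3 probe sets. Ermap, an erythroid membrane protein of the immunoglobulin superfamily, read 5.02 to 5.24 in KO, 5.05 to 5.35 in N1638, 5.06 to 5.49 in T1572 and 5.13 to 5.63 in WT. All of these lie inside the range of the unrelated tissue genes, so the values cannot tell a low level of these transcripts from none. The means of Klf1 (8.13), Epor (7.27) and Car1 (6.35) lie inside that range too, with 16, 15 and 15 of the 17 genes below them, while those of Gata1 and Nfe2 lie above it. The log2 fold changes of Alas2, Slc4a1 and Ermap against WT ran from -0.31 (Ermap in KO; limma adjusted p = 0.558) to 0.22 (Slc4a1 1416464_at in N1638; adjusted p = 0.446).

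Car1, a carbonic anhydrase of red cells, spread the most among the 4 on the log2 scale. Car1 read 5.89, 5.51 and 5.94 in KO, 6.70, 5.75 and 6.70 in N1638, 6.33, 7.14 and 7.51 in T1572, and 6.77, 5.47 and 6.48 in WT. KO arrays were low together, at 5.94 or less, while N1638 and WT each held 1 low array. T1572 arrays spread from 6.33 to 7.51 and overlapped those of N1638 and WT. Against WT the log2 fold change of Car1 was -0.46 in KO (limma adjusted p = 0.760), 0.14 in N1638 (adjusted p = 0.900) and 0.75 in T1572 (adjusted p = 0.767). The log2 difference of KO from T1572 was -1.21 (95% confidence interval -2.06 to -0.37) with no overlap, and its limma adjusted p was 0.325.

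Between mutant genotypes the members again gave no call. With limma, 0 of 16 probe sets passed in KO against N1638 (0.186% of all probe sets), 0 of 16 in KO against T1572 (1.00%) and 0 of 16 in N1638 against T1572 (0.171%). In the same order, the groups did not overlap on 1, 3 and 3 of the 16. The share over all probe sets was not computed between mutant genotypes, so nothing is drawn from a lack of overlap there. At an unadjusted p under 0.05 the limma counts were 0 of 16 in KO against N1638 (8.67% of all probe sets), 3 of 16 in KO against T1572 (8.03%) and 3 of 16 in N1638 against T1572 (7.72%). Those were Nfe2, Car1 and Slc4a1 1434502_x_at in KO against T1572, and Nfe2, Klf1 and Epor in N1638 against T1572, all with the lower mean in KO or N1638. These 2 comparisons share the T1572 arrays. Markers of related lineages had lower means beside them. With limma, 7 of 9 megakaryocyte markers had an unadjusted p under 0.05 in N1638 against T1572 (8 of 9 with a lower mean, median -0.49) and 1 of 9 in KO against T1572 (9 of 9 with a lower mean, median -0.26), and 0 passed after adjustment. The means of all 10 mast cell, basophil and eosinophil markers were lower in KO (median -0.44) and in N1638 (median -0.32) than in T1572, with limma counts of 4 and 2 of 10 at an unadjusted p under 0.05 and 0 after adjustment. Their part in the erythroid differences was not tested.

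Gata1, Klf1 and Epor tracked each other across the 12 arrays. Of 36 pairs of members, tested within a family of 42 relations, 3 passed after Benjamini-Hochberg adjustment. Gata1 and Klf1 had Pearson's r = 0.850 (permutation p = 0.00043, adjusted 0.00903) and Spearman's rho = 0.823 (permutation p = 0.00165, adjusted 0.0173). Gata1 and Epor had r = 0.839 (permutation p = 0.00069, adjusted 0.00966) and rho = 0.879 (permutation p = 0.00037, adjusted 0.00777). Klf1 and Epor had r = 0.772 (permutation p = 0.00188, adjusted 0.0197) and rho = 0.832 (permutation p = 0.00138, adjusted 0.0173). Without the arrays farthest from the median of Gata1, N1638 2 and T1572 2, r was 0.814 for Gata1 with Klf1 (permutation p = 0.00405) and 0.648 for Gata1 with Epor (permutation p = 0.0413). Taken as deviations from the group means, r was 0.792 for Gata1 with Klf1, 0.808 for Gata1 with Epor and 0.657 for Klf1 with Epor. Without its 2 farthest arrays, KO 3 and N1638 2, the r of Klf1 with Epor was 0.822 (permutation p = 0.00195).

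Markers of megakaryocytes, the sister lineage that also uses GATA1, moved with Gata1. The mean of 9 measured megakaryocyte markers, among them Pf4, Itgb3 and Itga2b, had r = 0.905 with Gata1 (permutation p = 4e-05, adjusted 0.00168) and rho = 0.918 (permutation p = 5e-05, adjusted 0.0021). It was 0.821 without those arrays (permutation p = 0.00317) and 0.931 for deviations from the group means. The mean of these markers ran from 10.21 to 10.58 in KO, 9.98 to 10.29 in N1638, 10.47 to 10.80 in T1572 and 10.12 to 10.60 in WT. For 10 markers of mast cells, basophils and eosinophils, led by Mcpt8, Cpa3 and Gzmb, r with Gata1 was 0.679 (permutation p = 0.0153, adjusted 0.104), and for Tfrc it was -0.685 (permutation p = 0.0129, adjusted 0.104). With the 3′ to 5′ gap, Gata1 had r = 0.528 for Actb (permutation p = 0.0788, adjusted 0.192) and 0.424 for Tfrc (permutation p = 0.170, adjusted 0.325). Klf1 read highest on KO 3, WT 6 and T1572 3 (9.02, 8.79 and 8.78). Those arrays also had the widest Tfrc gaps (4.43, 4.23 and 4.40). Neither a relation of Klf1 to these gaps nor their part in the relations above was tested. In bulk RNA, fewer cells of a type and less RNA per cell cannot be told apart.

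**Figure D3:**
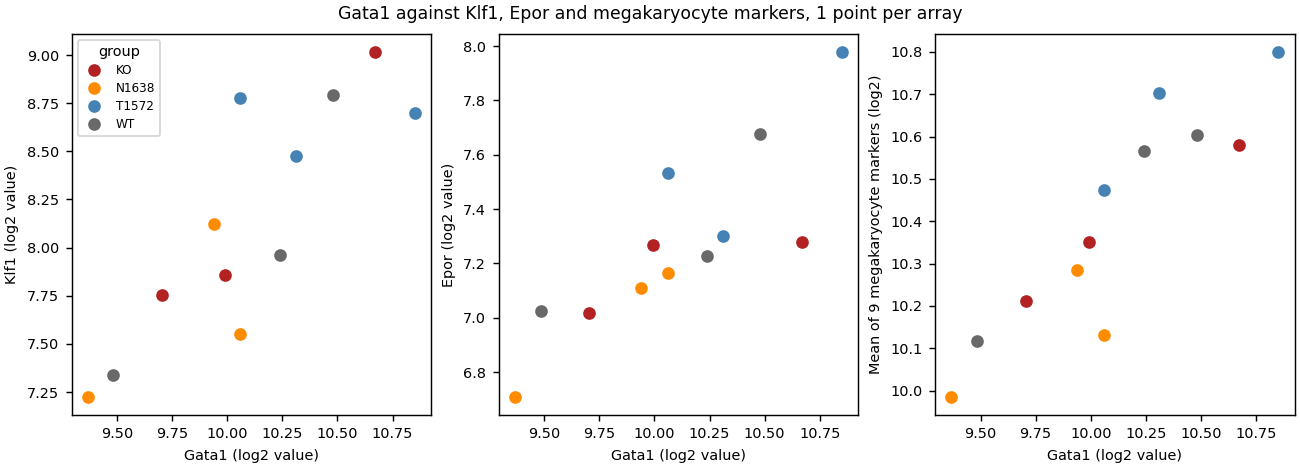
Log2 values on each of the 12 arrays, Gata1 on the x axis against Klf1, Epor and the mean of 9 megakaryocyte markers on the y axes (colours are genotypes). Values tend to be higher where Gata1 is higher in every panel (r = 0.850, 0.839 and 0.905), with all N1638 arrays below all T1572 arrays on each y axis.

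Likeness in pattern over the same 12 arrays was ranked by Pearson's r against 10701 or 10702 genes, 1 probe set each, whose mean lay above the median of all probe sets, and is given as a description. The genes most like Gata1 were Tspan33 (r = 0.948), Hnmt (0.944) and Aktip (0.924), and those most like Klf1 were Atg10 (0.952), Zfp110 (0.932) and Csnk1g1 (0.909). For Nfe2 they were Tfr2 (0.966), Galnt6 (0.943) and Nudt7 (0.940), and for Epor they were Samd14 (0.851), Gata1 itself (0.839) and Rbpms (0.837). Tfrc was most like Etv4 (0.944), Dcun1d5 (0.930) and Fastkd3 (0.928), and Car1 most like Rnf146 (0.889), Umad1 (0.871) and Ppp6c (0.864). The highest r was 0.901 for Slc4a1 (Lgr4), 0.862 for Ermap (Tob1) and 0.740 for Alas2 (Uap1l1), with Poglut2, Timm8a1, Nkx2-9, Trim34a, Anks1 and Nsf next.

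The wider erythroid programme, 74 measured of 88 listed genes in 7 groups, gave 1 call against WT in all. With limma 0 of 74 passed in KO (2.11% of all genes), 1 of 74 was lower in N1638 (2.04%) and 0 of 74 passed in T1572 (0.0495%). At an unadjusted p under 0.05 the limma counts were 13 of 74 in KO (17.6%, against 11.7% of all genes), 22 of 74 in N1638 (29.7%, against 19.2%) and 2 of 74 in T1572 (2.70%, against 7.43%). The median log2 fold change of the 74 was -0.08, -0.06 and 0.01, against -0.05, -0.03 and -0.03 over all genes.

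The single call was Tfr2, the second transferrin receptor, which erythroid cells use to sense iron-loaded transferrin. Tfr2 read 9.68, 9.74 and 10.14 in KO, 9.78, 9.42 and 9.96 in N1638, 10.65, 10.56 and 10.43 in T1572, and 10.48, 10.31 and 10.74 in WT. As for Nfe2, every KO and N1638 array lay below every T1572 and WT array. In N1638 Tfr2 fell by 0.79 ± 0.17 (SE, n = 3 each; limma adjusted p = 0.0494). Its KO value of -0.66 ± 0.17 missed the threshold (limma adjusted p = 0.113), and T1572 stood at 0.04 ± 0.17 (adjusted p = 0.986). With all 6 WT arrays, which are not independent, the KO value of Tfr2 was -0.65 (limma adjusted p = 0.0174). The N1638 call of Tfr2 is at the edge of the threshold: it ended when any one of KO 1, KO 2, N1638 1, N1638 2, the T1572 arrays or WT 4, 5 or 6 was left out (limma adjusted p from 0.0525 to 0.188), and also after quantile normalization (0.0641) and in a fit of the 2 groups alone (0.0575).

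**Figure D4:**
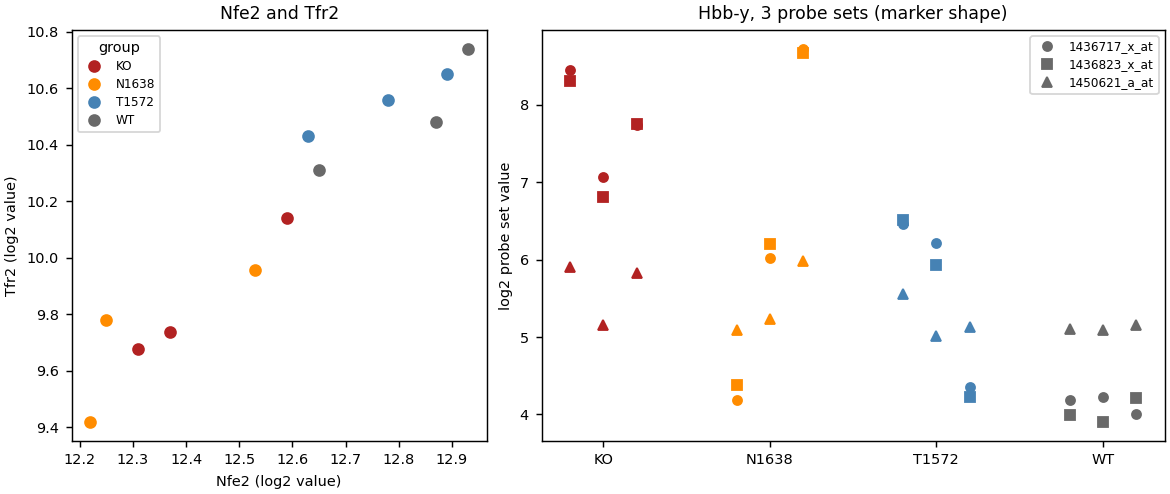
Left, log2 values of Nfe2 (x axis) and Tfr2 (y axis) on each of the 12 arrays, coloured by genotype, with KO and N1638 arrays at the lower left and T1572 and WT arrays at the upper right. Right, log2 values of 3 Hbb-y probe sets (marker shapes) by array and genotype, with WT arrays near 4 to 5 and KO arrays as high as 8.45.

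Group by group, the erythroid genes had these values. Globin genes gave 0 calls of 6 measured in each genotype against WT. Hba-a2 is an adult alpha-globin gene with a near-identical copy, Hba-a1, whose transcript its probe set may also detect. Hba-a2 averaged 12.48 and differed from WT by -0.19 in KO, 0.00 in N1638 and -0.08 in T1572. The Hba-a1 probe set 1453574_at read only 4.468 to 4.755 on the 12 arrays used. For Hbb-b2, an adult beta-globin gene, 1427865_at read 4.705 to 5.7 and 1427866_x_at read 4.228 to 4.633. Among the globin probe sets read, a high level of adult globin was thus seen on that of Hba-a2 alone, and the reason was not tested. Only probe sets with a single symbol were read, so any shared by several globin genes were left out. Of 10 listed globin genes 6 were measured, and the adult genes Hbb-b1, Hbb-bs and Hbb-bt were not among them. The level of adult beta-globin is therefore not settled here. Hbb-y, the embryonic beta-like globin, had the widest difference from WT in these lists. Its probe set 1436717_x_at read 8.45, 7.07 and 7.74 in KO, 4.19, 6.02 and 8.72 in N1638, 6.46, 6.21 and 4.36 in T1572, and 4.18, 4.23 and 4.00 in WT. All KO and all T1572 arrays of this probe set lay above all WT arrays, the lowest T1572 array narrowly (4.36 against 4.23). N1638 arrays ranged from near the WT level upward. The T1572 value of 1.54 did not pass (limma adjusted p = 0.802). Nor did the KO value of 3.61 ± 0.92 (SE, n = 3 each; limma adjusted p = 0.111). The WT mean of 4.14 is near the lowest mean of the unrelated tissue genes (4.09), so this difference may understate the change. Another Hbb-y probe set gave 3.59 in KO (limma adjusted p = 0.102) and the remaining one 0.52 (adjusted p = 0.535), both given after their values were seen. Hbb-y 1436717_x_at did pass in KO against all 6 WT arrays (limma adjusted p = 0.0150), in a separate fit of KO and WT 4 to 6 alone (adjusted p = 0.00205), and when N1638 1 (0.0380) or N1638 3 (0.0145) was left out.

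In haem synthesis, 0 of 9 measured genes passed in any genotype. Urod, which acts midway in the pathway, stood at -0.05 in KO, -0.25 in N1638 and -0.08 in T1572, and Fech, which inserts iron, at -0.08, 0.02 and 0.02. Of 13 membrane and surface genes 0 passed, with Cd24a, a surface antigen also of other blood cells, at 0.11, 0.04 and 0.06 and Tmod1, which caps actin filaments, at 0.01, -0.04 and 0.00. Transcription factors and partners gave 0 calls of 16, although 8 of 16 had an unadjusted p under 0.05 in N1638 with limma, where 19.2% of all genes did. In KO, N1638 and T1572 the median of that group was -0.15, -0.20 and 0.02. Its brightest genes were Myb, a factor of progenitor cells, at 0.16, 0.25 and 0.19, and Lmo2, a partner of GATA1 complexes, at 0.16, 0.23 and 0.06.

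Iron uptake and storage held the Tfr2 call, 1 of 10 measured genes. Its brightest genes, the ferritin heavy chain Fth1 and the mitochondrial transporter Abcb10, differed from WT by 0.00 and -0.01 in KO, -0.06 and 0.12 in N1638, and 0.01 and 0.01 in T1572. Erythropoietin signalling gave 0 calls of 10, with the kinase Jak2 at 0.14, -0.01 and 0.07 and the signal transducer Stat5a at 0.18, 0.16 and 0.10. The lowest value of that group, named after it was seen, was that of Socs3, a feedback inhibitor of cytokine signalling, which stood at -0.84, -1.34 and -0.53 (limma adjusted p = 0.377, 0.0785 and 0.808). Red cell enzymes and late maturation gave 0 of 10, with the nuclear export factor Xpo7 at 0.05, 0.03 and 0.05 and the carbonic anhydrase Car2 at -0.13, -0.29 and -0.24.

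**Figure D5:**
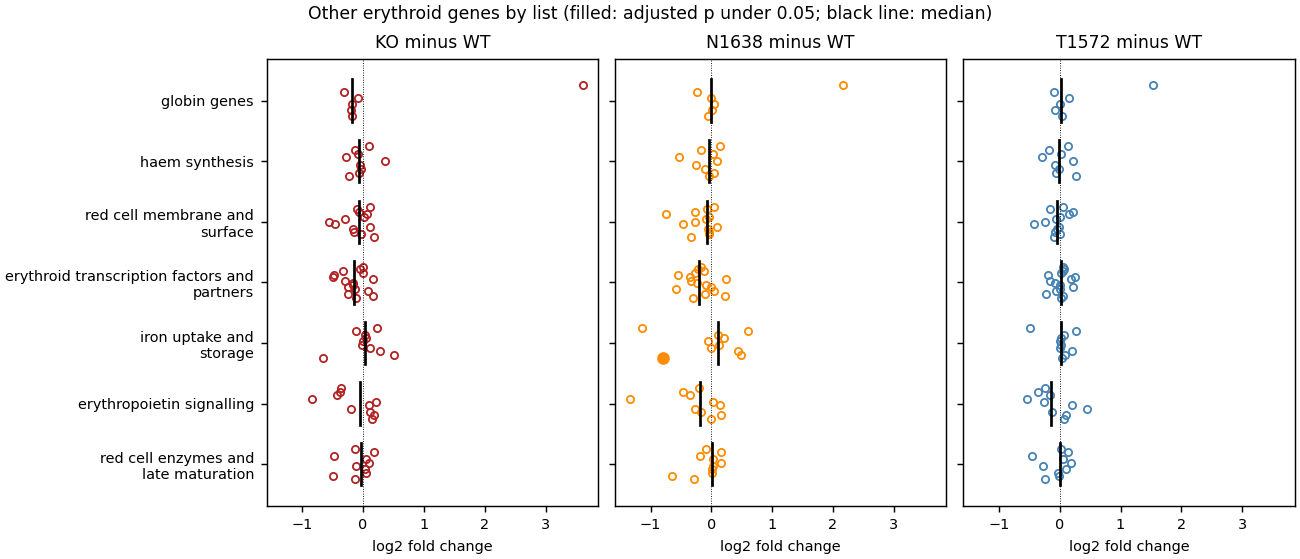
Log2 fold change against WT (x axis) of 74 other erythroid genes in 7 lists (rows), for KO, N1638 and T1572. Points are genes, black lines are list medians and a filled point marks an adjusted p under 0.05, which is Tfr2 in N1638 (-0.79) and no other gene.

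Markers of other blood cells were read beside these. Megakaryocyte markers gave 0 calls of 9 in each genotype against WT, mast cell, basophil and eosinophil markers 0 of 10, and stem and progenitor markers, with Kit, Cd34 and Flt3 the brightest, 0 of 7. Among 11 neutrophil and monocyte markers, led by Mpo, Ctsg and Prtn3, Cd14 rose by 2.45 in KO, 3.56 in N1638 and 2.53 in T1572, with limma adjusted p of 0.00116 or lower, and Prtn3 rose by 0.42 in N1638 (adjusted p = 0.0460). Of 9 lymphoid markers 1 rose and 3 fell in KO, 3 fell in N1638 and 1 fell in T1572. Il7r, the receptor for interleukin 7, rose by 4.11 in KO (limma adjusted p = 0.00127), and Cd3g, a T cell receptor subunit, fell by 1.28 in KO, 1.45 in N1638 and 1.27 in T1572 (0.00592 or lower). Cd7 fell by 3.10 in KO and 3.87 in N1638, and Ebf1, a B cell factor, fell by 1.83 in KO and 2.35 in N1638, while Dntt, the brightest of the list, stood at -0.09, -0.60 and -0.23. Their part in the erythroid values was not tested.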

How the data were processed

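Expression in LSK cells of 4 Apc genotypes was measured on 1 array per sample. The values deposited by the authors are on a log2 scale, as read from their range, and the submitters' processing notes name RMA and mm9, with no role or version. No value was missing among the 45101 probe sets on 15 arrays. The platform annotation gave 34958 probe sets 1 symbol and 932 several, and did not list 9211.

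No filter or further normalization was applied. In R 4.3.3, limma 3.58.1 (lmFit, then eBayes with neither trend nor robust options) was run over all probe sets on 12 arrays: KO, N1638 and T1572 replicates 1 to 3 and WT 4 to 6, with 8 residual degrees of freedom before moderation. Two-sided p-values were adjusted with the Benjamini-Hochberg method over all probe sets of a contrast, at a threshold of 0.05. Genes of lists were read on the probe set with the highest mean. Correlations used 100000 permutations (scipy 1.17.1). The number of arrays limits the precision. The method was tested on simulated data.

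The members and gene lists were chosen with earlier results of these data known. All member probe sets are given. From each erythroid list and contrast with WT, up to 3 genes of lowest p past the threshold are named, and with none past it the 2 with the highest mean. From lists of other cells the 3 with the highest mean and up to 3 past the threshold are named, and for likeness the 3 genes with the highest r. Alternatives covered all 6 WT arrays, a filter on level, quantile normalization, eBayes options, fits of 2 groups, sex type, a replicate block, 1 probe set per gene and each array left out. Arrays with the same replicate number correlated at -0.07 to 0.38 in their deviations from group means, against -0.35 to 0.20 for other pairs, and since not every same-number pair was above 0.1, the numbers were not taken to pair samples across the groups.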

Additional observations from a re-analysis of the deposited data

Results flagged for a closer look

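For Ermap, WT array 5 stood apart: among the 6 WT arrays its distance to the nearest other array was 0.649 of the whole range, the other arrays lying between 5.46 and 5.63 and WT 5 at 5.13. WT 1 to 3 all read 5.46 and are not independent of WT 4 to 6, so no chance rate applies and nothing is drawn from it. For Car1, KO and T1572 differed in their response against WT, by -1.21 on the log2 scale (KO 5.51 to 5.94, T1572 6.33 to 7.51). Every KO array lay below the WT mean of 6.24 and every T1572 array above it. The test of that difference gave a limma adjusted p of 0.325, and both responses share the WT arrays.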

How the results depend on the processing

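Of 1842 log2 fold changes of member probe sets recomputed under the alternatives, 1840 moved by less than 1 SD within groups with no change of call and 2 passed the threshold, both Nfe2 with all 6 WT arrays, which gave 1 member call in KO and 1 in N1638 against WT. Member calls stayed at 0 in each comparison with any array left out (0 to 0). Across alternatives the N1638 value of Nfe2 ran from -0.58 to -0.43 (limma adjusted p from 0.0103 to 0.319) and the KO value from -0.54 to -0.34 (0.0381 to 0.591).

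The cause of the following moves was not tested. Calls over all probe sets in KO against WT (674) were 1951 with all 6 WT arrays, 438 above the median level, 346 with sex type and 387 to 753 with an array left out. In N1638 against WT (623) they were 3912 with all 6 WT arrays, 1135 with only 2 groups, 392 with sex type and 159 to 882. In T1572 against WT (13) they were 283 with all 6 WT arrays, 7 above the median level, 21 with trend and robust options, 1 with 2 groups, 20 with 1 probe set per gene and 7 to 25. In KO against N1638 (84) they were 220 with all 6 WT arrays, 26 above the median level, 133 with trend and robust options, 2 with 2 groups, 52 with sex type and 24 to 185. In KO against T1572 (451) they were 697 with all 6 WT arrays, 268 above the median level, 255 with 2 groups and 329 to 496, and in N1638 against T1572 (77) they were 157 with all 6 WT arrays, 13 with 2 groups and 39 to 89. Other erythroid genes called in KO numbered 6 with all 6 WT arrays, 1 with 2 groups and 0 to 1 with an array left out. In N1638 they numbered 10 with all 6 WT arrays, 2 above the median level, 0 after quantile normalization, 3 with trend and robust options, 2 with 2 groups, 4 with 1 probe set per gene and 0 to 5.

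The replicate block, run with all 6 WT arrays or on mutant arrays only, gave 0 member calls. All-probe-set calls with the block were 1045 in N1638 and 31 in T1572 against WT, 39 in KO against N1638 and 33 in N1638 against T1572, and other erythroid calls in N1638 were 3. The block against WT also changes the WT arrays, so those counts mix 2 choices. Of the 9 same-number pairs 6 correlated above 0.1, against 1 of 18 others, which is a hint from the data and not the design. All 3 pairs of KO with T1572 did (0.14 to 0.21), and there the block gave 357 calls and no member.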

Other observations

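Slc40a1, which encodes ferroportin, the exporter of iron from cells, is given after its values were seen. Slc40a1 read 7.97, 7.68 and 8.50 in KO, 6.50, 6.55 and 7.00 in N1638, 7.49, 6.84 and 7.69 in T1572, and 7.81, 7.996 and 7.66 in WT. The N1638 arrays all lay below the KO and WT arrays. Its log2 fold change in N1638 against WT was -1.14 ± 0.25 (SE, n = 3 each; limma adjusted p = 0.0528), and KO exceeded N1638 by 1.37 (adjusted p = 0.0693). In N1638 it passed with all 6 WT arrays (limma adjusted p = 0.00428), above the median level (0.0413) and with trend and robust options (0.0422). It passed as well in a fit of the 2 groups alone (0.0188) and with 1 probe set per gene (0.0291). With the replicate block, where the comparison rests on WT 1 to 3 alone, it passed too (0.0135). It also passed without KO 2 (0.0432), KO 3 (0.0306), N1638 3 (0.0482), T1572 2 (0.0316) or T1572 3 (0.0437). Slc40a1 did not pass after quantile normalization or with sex type. Nor did it pass without KO 1, N1638 1, N1638 2, T1572 1, WT 4, WT 5 or WT 6.

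Socs3 and Ptpn6, both inhibitors of cytokine receptor signalling, are likewise given after their values were seen. Socs3 read 7.21, 7.28 and 8.27 in KO, 7.26, 6.48 and 7.54 in N1638, 7.96, 8.28 and 7.45 in T1572, and 8.38, 8.39 and 8.52 in WT. All mutant arrays of Socs3 lay below all WT arrays. In N1638 Socs3 missed the threshold (limma adjusted p = 0.0785) and passed with all 6 WT arrays (0.00946), in a fit of the 2 groups alone (0.0426), with 1 probe set per gene (0.0446) and without KO 3 (0.0343). Ptpn6 stood at -0.38 in KO, -0.46 in N1638 and -0.36 in T1572 (limma adjusted p = 0.135, 0.0586 and 0.490). Ptpn6 passed with all 6 WT arrays in KO (0.0206) and N1638 (0.00617), and in N1638 also with trend and robust options (0.0335), 1 probe set per gene (0.0328) and without KO 3 (0.0476). Under the remaining alternatives neither Socs3 nor Ptpn6 passed against WT. Pim1 passed with all 6 WT arrays only, at -0.44 in KO (limma adjusted p = 0.0363) and -0.38 in N1638 (0.0496).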
